A study of Mus musculus with 12 samples.

Results

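The NMDA receptor is a glutamate-gated calcium channel of excitatory synapses, and its pore is the site blocked by ketamine. Its subunit genes, 6 in number here, were followed in the mouse hippocampus. Grin1 encodes the obligatory GluN1 subunit, Grin2a, Grin2b, Grin2c and Grin2d encode the glutamate-binding GluN2 subunits, and Grin3a encodes GluN3A, a glycine-binding subunit. Rows were chosen by gene name in each of 3 deposited tables. Rows of the types novel_antisense, intronic, run-on and novel_lincRNA were left out, and the longest locus was kept. All 6 genes were found, among 15063 gene names that the same rule finds. The ketamine table held 6 of them, and the siGSK3b and L803mts tables held 5 each, without Grin2d.

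The receptor is a tetramer that opens when glutamate and a co-agonist, glycine or D-serine, are bound and depolarisation has expelled magnesium from the pore. GluN2B and GluN2A are the main GluN2 subunits of the forebrain. GluN2B predominates early in life, and GluN2A rises with maturation. GluN2C is best known from cerebellar granule cells and glia, GluN2D from interneurons and deep brain nuclei, and GluN3A from the young brain.

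The 12 RNA-seq libraries came from hippocampus of C57BL/6 mice, in 4 groups of 3. Controls received vehicle into the nose (5 µL to each nostril on alternate days over 3 days). On that schedule and volume the siGSK3b group received 10 µg of an siRNA against GSK3beta, a serine/threonine kinase, and the L803mts group received 60 µg of L803mts, a GSK3 inhibitor. The ketamine group received 10 mg/kg by the intraperitoneal route (labelled ip), with a time of 24 h. No injected vehicle group is labelled, so drug, route and schedule cannot be told apart in the ketamine comparison. The labels give neither age nor sex, and do not say whether libraries are separate mice, so the tests measure the spread between libraries, which may be technical.

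Each table sets 1 treatment against the same 3 control libraries in FPKM, an abundance scaled by transcript length and library size, and the read depth is unknown. The median FPKM of a library was between 8.66 and 10.2. Gsk3b, the targeted gene, was read over a locus of 4228 bases. It was at 18.4, 19.3 and 18.9 FPKM in libraries labelled siGSK3b and at 18.0, 17.3 and 17.8 in control. No fall was thus seen at this locus, where each treated library was above each control. The difference of 0.09 was not called (limma, adjusted p = 0.938). Markers of pyramidal neurons (7 of 8 measured) and dentate granule neurons (6 of 6) were present, and none of them was at 0 in any library. The summed level of 12 choroid plexus markers differed between control libraries, where the siGSK3b table gave 3783, 233.9 and 44.8 FPKM for replicates 1, 2 and 3. It was between 3469 and 5150 in libraries labelled siGSK3b, between 1495 and 2482 with L803mts and between 267.9 and 2212 with ketamine, each in its own table. In bulk tissue, fewer cells of a type and less RNA per cell cannot be told apart.

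The stretch of the coding sequence that surrounds the channel's narrowest point is shown because ketamine and magnesium bind in this pore. Each line is 48 bases of mRNA-sense coding sequence (GENCODE M21, build GRCm38), 5′ to 3′. The capitals mark the codon that aligns with the pore asparagine of Grin1.
Grin1: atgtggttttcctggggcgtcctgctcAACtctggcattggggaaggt
Grin2a: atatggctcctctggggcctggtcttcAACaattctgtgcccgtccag
Grin2c: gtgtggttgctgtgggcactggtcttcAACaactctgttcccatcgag
Grin2d: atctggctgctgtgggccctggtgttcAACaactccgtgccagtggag
Grin3a: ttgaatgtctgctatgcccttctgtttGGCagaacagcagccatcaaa
The marked codon, number 616 in Grin1, encodes asparagine in Grin1 and in the 3 Grin2 genes shown. The next codon also encodes asparagine in those Grin2 genes, and serine in Grin1. In Grin3a the marked codon is number 729 and encodes glycine, followed by arginine. These Grin2 stretches shared 37 to 38 of 48 bases pairwise, Grin1 shared 21 to 23 with them, and Grin3a shared 15 to 21 with the others shown. Their coding sequences ran from 938 codons in Grin1 to 1464 in Grin2a.

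The locus limits behind each gene decide what can be compared, and they differed between tables. Coordinates are on build NCBIM37. Grin1 (chromosome 2, 25147484 to 25174677 in the ketamine table) and Grin2b (chromosome 6, 135668829 to 136123124) covered 96.3% or more of the length of the RefSeq gene in each table. Grin3a (chromosome 4, 49673269 to 49857573) covered 99.9% in the siGSK3b and ketamine tables and 71.9% in the L803mts table. Grin2c was a stretch of 712 bases in the siGSK3b table and 706 in the ketamine table (chromosome 11, 115110456 to 115111161), but 10322 bases in the L803mts table (115108444 to 115118765). Grin2d (chromosome 7, 53089691 to 53109960) covered 51.6% of its gene's length. Only Grin1, Grin2b and, in part, Grin3a were therefore measured over like loci in the 3 tables.

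The row that carried the name Grin2a differed between tables. In the ketamine table a pair of rows had the same limits (chromosome 16, 9573902 to 9993211), and the protein-coding row was taken. In the siGSK3b table the longest Grin2a row, of type mixed, spanned 9573904 to 9993091. Locus numbers in these tables run in blocks by strand. Protein-coding loci whose neighbours in that order lie on 1 strand were themselves annotated on that strand in 99.9% of cases in each table. Both mixed rows of Grin2a were numbered among loci of the opposite strand (0 of 12 neighbours on the strand of Grin2a), while the protein-coding rows had 12 of 12. By this order the siGSK3b value of Grin2a is that of a locus antisense to the gene. The L803mts row was a stretch of 2204 bases (9994007 to 9996210), 795 bases beyond the long locus. Its library values averaged 4.41 in control, whereas the authors' group value for the same row was 56.5. The protein-coding row of the ketamine table differed too, by less, with 52.9 against a group value of 57.1 in control. Values per library of a long Grin2a row of type protein-coding were thus found in the ketamine table alone. The L803mts row lay outside that locus. For the siGSK3b row the strand rests on the locus order alone, and the strand of its reads was not checked.

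**Figure D1:**
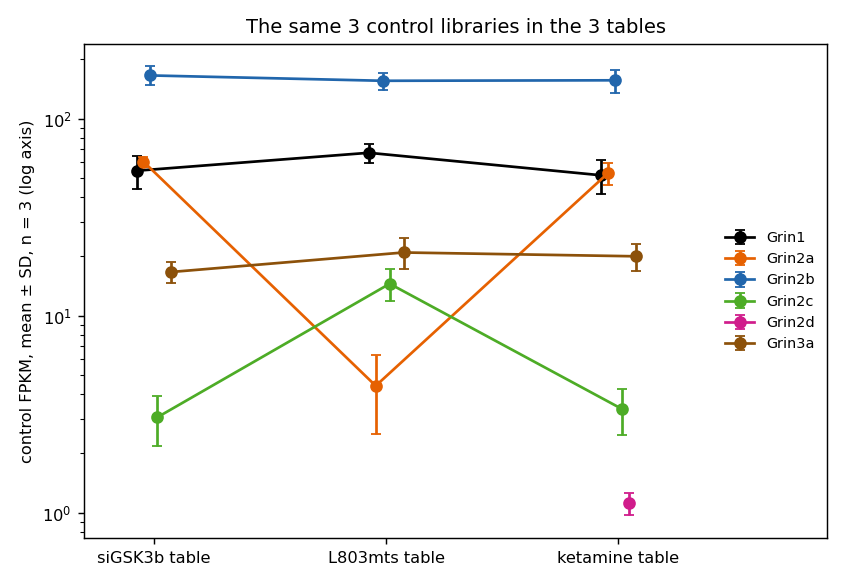
Mean FPKM ± SD (log axis) of the 3 control libraries for each subunit gene in each of the 3 tables, with lines joining the same gene. Grin2b lies between 156 and 166 throughout, while Grin2a and Grin2c change with the locus that carries their name.

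By the chosen rows Grin2b was the highest subunit gene in each table. Grin1 and the long Grin2a locus came next without separating, and Grin3a, Grin2c and Grin2d followed. That Grin2a locus is the protein-coding row in the ketamine table and the mixed row in the siGSK3b table. The mixed row of the ketamine table, with the same limits as the protein-coding row, was at 296 ± 35.4 FPKM, above Grin2b. These levels are means of control libraries. In the ketamine table Grin2b was at 157 ± 21.0 FPKM (SD, n = 3), above 97.2% of tested loci, and was 2.96 times the level of Grin2a. Grin2a was at 52.9 ± 6.65 and Grin1 at 51.6 ± 10.2, and their control libraries overlapped. Grin3a was at 20.0 ± 3.19, the short Grin2c locus at 3.36 ± 0.871 and Grin2d at 1.12 ± 0.147. Apart from Grin2a and Grin1, neighbours in this order did not overlap in any control library. The rank of Grin2c depends on its locus. Its level was 14.5 ± 2.66 FPKM in the same 3 control libraries when the 10322-base locus was used, 4.76 times its value in the siGSK3b table. Over like loci the same controls also differed between tables, though by less. The ketamine table gave 0.945 times the siGSK3b level for Grin2b, 0.948 for Grin1 and 1.20 for Grin3a. The L803mts table gave 0.939 times the siGSK3b level for Grin2b and 1.23 for Grin1.

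**Figure D2:**
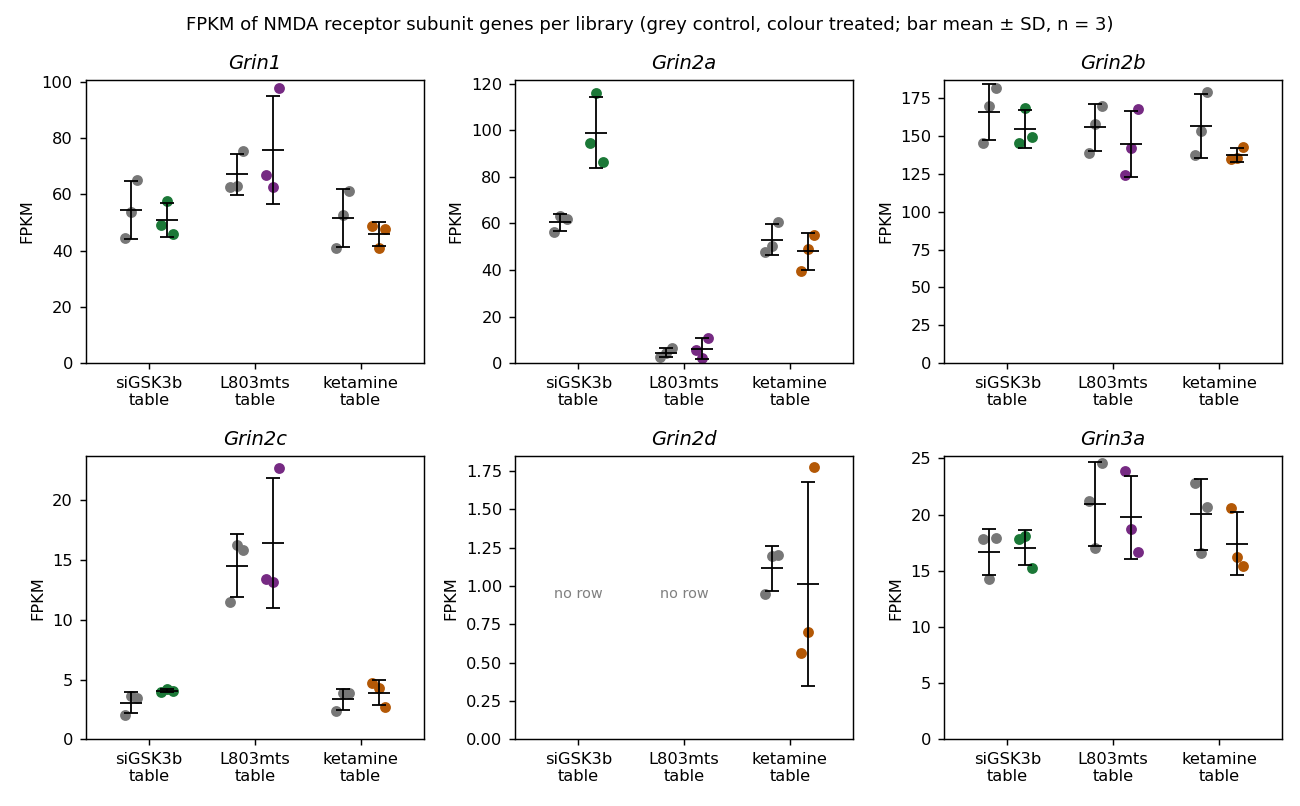
FPKM of the 6 subunit genes in every library, 1 panel per gene with a linear axis from 0. Grey points are control libraries and coloured points treated libraries, each in the order of replicates 1, 2 and 3, with the mean ± SD (n = 3). The Grin2a points of the siGSK3b table come from the locus numbered with the opposite strand.

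The ketamine comparison asks whether transcripts of the drug's own receptor differed at 24 h. None of the 6 subunit genes passed either test. The means of 5 of 6 genes were below control, but treated and control libraries overlapped for every gene. Limma called 0 of 6 at an adjusted p of at most 0.05, against 0.0114% of the 17545 loci tested, and the authors' deposited test called 0 of 6, against 0.439%. At an unadjusted p under 0.05 limma counted 0 of 6, against 6.13% of all loci, and the deposited test 0 of 6, against 5.97%. The share of all tested loci whose groups did not overlap was 11.5%. The median difference over the 6 genes was −0.15 on the log2(FPKM + 1) scale, beside −0.01 over all tested loci.

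Grin1 was at 48.7, 41.0 and 47.8 FPKM after ketamine and at 41.0, 52.6 and 61.3 in control. The ketamine libraries lay within the control range or at its lower edge. The difference was −0.15 on the log2(FPKM + 1) scale, with a 95% interval from −0.50 to 0.19 (limma, adjusted p = 0.919). Grin2b was at 135, 136 and 143 FPKM against 137, 153 and 179. Ketamine replicates 1 and 2 were below the lowest control, and replicate 3 was not. Its difference of −0.18 had an interval from −0.42 to 0.07 (limma, adjusted p = 0.859), so that a fall to less than 0.749 of the control level, on the FPKM + 1 scale, lay outside the interval.

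The long Grin2a locus was at 39.7, 49.1 and 55.2 FPKM with ketamine and 47.9, 50.4 and 60.5 in control. The groups overlapped, and the difference was −0.14 with an interval from −0.47 to 0.18 (limma, adjusted p = 0.919). The row with the same limits and the opposite strand number was at 209, 317 and 215 FPKM against 306, 256 and 325. It differed by −0.28, with an interval from −0.68 to 0.12 (limma, adjusted p = 0.863). This locus was at a higher FPKM than Grin2a in each of the 6 libraries. Rows that share limits may share reads if strand was not used in counting, which the sources used here do not state.

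Grin3a was at 20.6, 16.2 and 15.4 FPKM with ketamine and 22.8, 16.5 and 20.7 in control. Replicates 2 and 3 were below the lowest control and replicate 1 among the higher ones, with a difference of −0.19 (limma, adjusted p = 0.901). The short Grin2c locus was the only one with a mean above control, at 4.71, 4.33 and 2.72 against 2.36, 3.85 and 3.88 FPKM. Its difference of 0.17 had an interval from −0.36 to 0.71 (limma, adjusted p = 0.938). Without control replicate 1, the lowest of the controls, that difference was −0.01. Grin2d was at 0.561, 0.700 and 1.78 FPKM against 0.946, 1.20 and 1.20. Ketamine replicate 3 was the highest and replicate 1 the lowest library, and the interval of the difference ran from −0.68 to 0.44 (limma, adjusted p = 0.963). These low levels leave wide intervals.

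The question of the siGSK3b table is what the intranasal siRNA did to the same genes. Of the 5 subunit genes with a row, limma called 0 at an adjusted p of at most 0.05, against 0.00612% of 16351 tested loci, and the deposited test called 0, against 0.508%. At an unadjusted p under 0.05 limma counted 1 of 5, against 5.83% of all loci, and the deposited test 0 of 5, against 5.6%. The groups did not overlap for 2 of 5, against 10.6% of all tested loci, and both were higher, against 5.72%. These were the mixed Grin2a row with the opposite strand number and the 712-base locus of Grin2c. The first may not measure the Grin2a transcript, and the second covers a small part of its gene.

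The mixed Grin2a locus was at 94.6, 116 and 86.5 FPKM in libraries labelled siGSK3b and at 56.4, 63.3 and 61.9 in control. All treated libraries were above all controls. The difference was 0.69 ± 0.12 (standard error) on the log2(FPKM + 1) scale, with an interval from 0.42 to 0.97, and an unadjusted p of 0.000422 that became 0.431 after adjustment (limma). The authors' deposited table gave the same row a log2 fold change of 0.71 with a p of 0.308 and an FDR of 0.999. The control mean of this row was 60.6 ± 3.66 FPKM. In the ketamine table the same controls were at 296 ± 35.4 over the mixed row and at 52.9 ± 6.65 over the protein-coding row. The siGSK3b level was thus nearer that of the protein-coding row, and the strand it measures was not tested. If the mixed rows are 1 quantity, it differed between tables by more than the treatment difference. The protein-coding Grin2a row of the siGSK3b table was a stretch of 1929 bases, at 1.49, 8.79 and 1.36 FPKM against 2.25, 4.68 and 5.96 in control. Its difference was −0.39, with an interval from −1.66 to 0.89 (limma, adjusted p = 0.961), so the sign for the name Grin2a turned with the row.

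Grin2c was at 3.96, 4.18 and 4.07 FPKM in libraries labelled siGSK3b and 2.04, 3.66 and 3.46 in control. The treated libraries stood just above the highest control, with control replicate 1 well below the others. The difference was 0.35, with an interval from −0.10 to 0.80 (limma, adjusted p = 0.894), and it was 0.15 without control replicate 1. That control library was also the one with the highest choroid plexus markers. The part of this library's make-up in the difference was not tested.

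Grin1 was at 49.1, 57.6 and 45.9 FPKM in libraries labelled siGSK3b and 44.6, 53.6 and 65.1 in control. All treated values lay inside the control range, and the difference of −0.09 had an interval from −0.43 to 0.26 (limma, adjusted p = 0.966). Grin2b was at 145, 169 and 150 FPKM against 146, 170 and 182, with overlap, a difference of −0.10 and an interval from −0.34 to 0.15 (limma, adjusted p = 0.945). Grin3a was at 17.9, 18.1 and 15.2 against 17.8, 14.3 and 17.9, with a difference of 0.04 (limma, adjusted p = 0.987). For these 3 genes the intervals covered ratios from 0.743 to 1.26 on the FPKM + 1 scale.

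The L803mts comparison asks the same of the inhibitor. Of the 5 subunit genes with a row, limma called 0, against 0% of 17074 tested loci, and the deposited test called 0, against 0.65%. At an unadjusted p under 0.05 both tests counted 0 of 5, against 6.18% of all loci in limma and 7.17% in the deposited test. The groups overlapped for all 5 genes, while 12.5% of all tested loci did not overlap. For 4 of the 5 genes L803mts replicate 3 was the highest treated library, and for Grin3a it was the lowest.

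Grin1 was at 66.9, 62.5 and 98.0 FPKM with L803mts and 62.7, 63.1 and 75.6 in control. Replicate 3 stood alone, and the other treated libraries were near the lower controls. The difference of 0.15 had an interval from −0.25 to 0.55 (limma, adjusted p = 0.836) and was −0.05 without that library. Grin2c, here over 10322 bases, was at 13.4, 13.2 and 22.7 FPKM against 11.5, 16.3 and 15.9. Its difference of 0.14 (limma, adjusted p = 0.883) was −0.10 without L803mts replicate 3. It was −0.01 without control replicate 1.

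Grin2b was at 124, 142 and 168 FPKM with L803mts and 139, 158 and 170 in control. Only L803mts replicate 1 was below the lowest control. The difference was −0.11, with an interval from −0.42 to 0.20 (limma, adjusted p = 0.843). Grin3a was at 23.9, 18.8 and 16.7 FPKM against 21.2, 17.1 and 24.6, with a difference of −0.08 (limma, adjusted p = 0.916). The 2204-base row named Grin2a was at 5.57, 2.16 and 10.9 FPKM against 2.64, 4.19 and 6.40, and its interval ran from −0.76 to 1.31 (limma, adjusted p = 0.884). The authors' group values printed on that row were 56.5 in control and 55.7 with L803mts. Their deposited log2 fold change for it was 0.50, which followed the library means (4.41 and 6.21) and not these group values. Grin2d had a novel_antisense row alone, outside the rule, at 2.44, 1.32 and 2.70 FPKM against 1.80, 1.38 and 2.07.

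**Figure D3:**
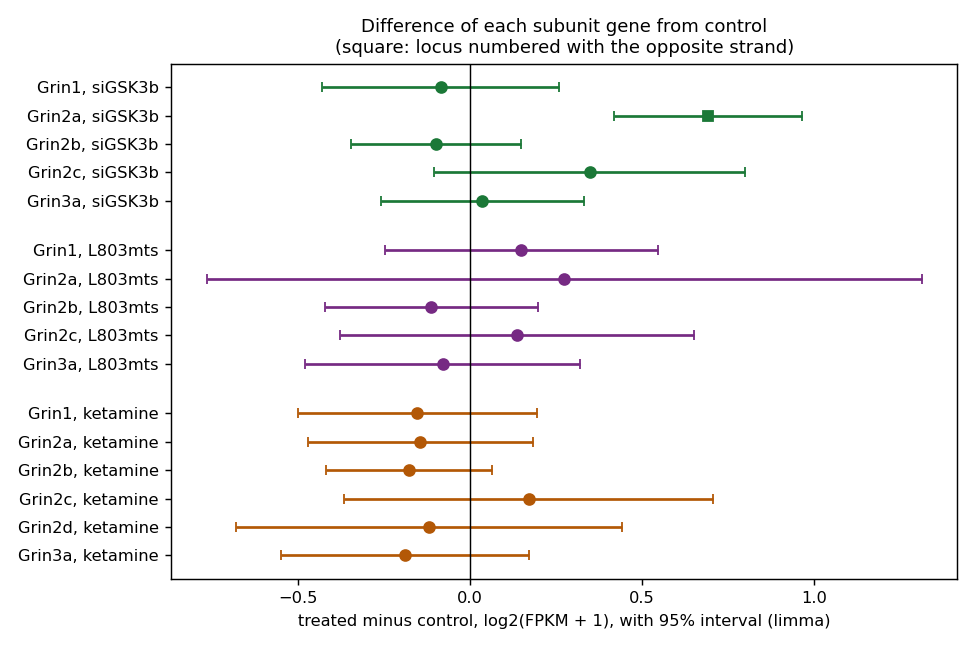
Difference between treated and control libraries on the log2(FPKM + 1) scale with limma's 95% interval (n = 3 per group) for each subunit gene and table. The square marks the Grin2a locus of the siGSK3b table with an opposite-strand number, the only row whose interval does not include 0; its adjusted p is 0.431.

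Ratios were also taken within each library. The log2 ratio of Grin2a to Grin2b, with 1 added to each FPKM, was −1.50, −1.59 and −1.55 in control and −1.74, −1.45 and −1.36 with ketamine, where the long locus was measured. The ketamine libraries lay on both sides of the controls, and the means differed by 0.03 (exact two-sided permutation test, p = 0.9, where the smallest possible p is 0.1). In the siGSK3b table the ratio used the mixed row with the opposite strand number. Its difference of 0.79 (exact p = 0.1) is not assigned to the subunits, because that strand was not checked. In the L803mts table the ratio used the 2204-base row and differed by 0.39 (exact p = 0.5). It differed by 0.036 without L803mts replicate 3 and by 0.87 without replicate 2. The log2 ratio of Grin2b to Grin1, a pair singled out after the values were seen, was 1.60 ± 0.116 in control and 1.59 ± 0.083 in libraries labelled siGSK3b. It was 1.20 ± 0.097 and 0.94 ± 0.207 in the L803mts table, and 1.59 ± 0.111 and 1.57 ± 0.128 in the ketamine table. The libraries of the groups overlapped in each table.

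Some single libraries were high or low for several subunit genes at once. Control replicate 1 was the lowest control for 4 of 5 genes in the siGSK3b and L803mts tables and for 5 of 6 in the ketamine table. In the siGSK3b table replicate 2 was the highest treated library for 5 of 5 genes, counting the mixed Grin2a row. In the ketamine table replicates 1 and 3 were each the highest treated library for 3 genes. No share over all loci was set beside these counts. The pyramidal neuron markers also varied between libraries. Averaged as log2(FPKM + 1), they stood at 4.65, 4.80 and 5.07 for the controls in replicate order, and 4.79, 4.94 and 4.69 in libraries labelled siGSK3b. In the L803mts table the controls stood at 5.23, 5.34 and 5.63 and the treated libraries at 5.19, 5.15 and 5.69. By this average L803mts replicates 1 and 2 were below each control, and replicate 3 was the highest, as for Grin1. By summed FPKM replicate 3 was at 1294.5, inside the control range of 1288 to 1507. In the ketamine table the controls stood at 5.24, 5.34 and 5.63 and the treated libraries at 5.07, 5.25 and 5.39. There replicate 1 was the lowest in these markers, while Grin1, Grin2c and Grin3a were highest in it among the ketamine libraries. Their part in the subunit levels was not tested.

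**Figure D4:**
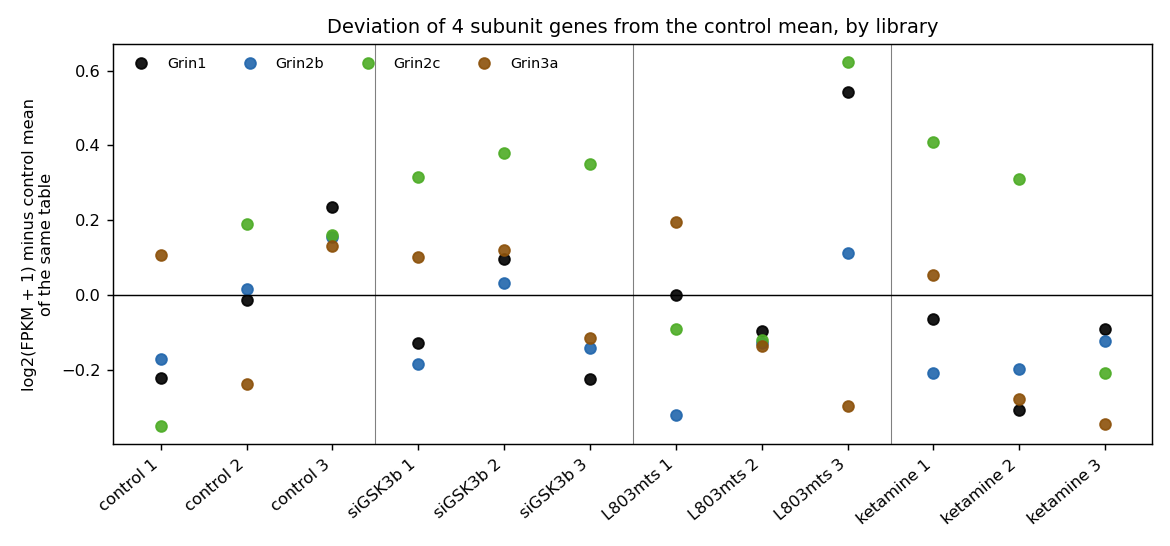
Log2(FPKM + 1) minus the control mean of the same table for Grin1, Grin2b, Grin2c and Grin3a in the 12 libraries; control points are means over the 3 tables. Grin1 and Grin2c are highest in L803mts replicate 3, at 0.54 and 0.62, and Grin3a is below 0 there.

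Over the 12 libraries, with each value taken as its difference from the control mean of the same table, Grin1 and Grin2b went together with a Pearson r of 0.73. Grin3a had an r of −0.03 with Grin1 and −0.19 with Grin2b. These values describe libraries that share controls and a scaling, and carry no test. Among 12000 genes, those most like Grin1 were 6530418L21Rik (r = 0.96), Adcy1, which encodes a calcium-stimulated adenylyl cyclase (r = 0.96), and Sarm1, which encodes an NAD-cleaving enzyme of axon degeneration (r = 0.95). Those most like Grin2b were Gpd1 (r = 0.93), which encodes a glycerol phosphate dehydrogenase, Ank3 (r = 0.89), which encodes the scaffold ankyrin-G, and Fat4 (r = 0.88), which encodes an atypical cadherin. Grin3a was followed by Zfp629 (r = 0.94), Uspl1 (r = 0.93) and Ddc (r = 0.92), and Grin2c by Osbpl6 (r = 0.85), Ppp1r16a (r = 0.85) and Zfand2a (r = 0.84). The Grin2c series joins loci of 712, 10322 and 706 bases. The Grin2a row also differed between the 3 tables. The genes nearest to its mixed series were Ghrl (r = 0.96), Evc2 (r = 0.91) and Itpr1 (r = 0.90).

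The genes around the receptor were followed in 4 lists of 80 genes in all. Limma called 0 of 72, 0 of 73 and 0 of 72 measured genes in the siGSK3b, L803mts and ketamine tables. In the deposited test 1 gene was lower in the siGSK3b table, against 0.226% of all loci, 3 were higher in the L803mts table, against 0.574%, and 0 were called in the ketamine table. At an unadjusted p under 0.05 limma counted 1 higher and 4 lower, 2 higher and 1 lower, and 2 higher and 2 lower, where 5.83%, 6.18% and 6.13% of all tested loci passed in either direction. The groups did not overlap for 11.1%, 12.3% and 11.1% of the genes, close to the shares of all tested loci given above. The lists differed in this share, in the same order of tables. Scaffold genes were at 4.55% in each table, and signalling genes at 8.70%, 8.70% and 13.0%. Genes of co-agonist and glutamate supply were at 25%, 17.6% and 25%. Other ionotropic glutamate receptor genes were at 9.09%, 27.3% and 0%. Over all 4 lists the median differences were −0.04, 0.01 and −0.05, beside 0.01, −0.02 and −0.01 over all tested loci.

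Scaffold proteins hold the receptor at the postsynaptic density. Of 22 measured scaffold genes Dlg4 and Shank3 rose with L803mts in the authors' deposited test. Dlg4, which encodes PSD-95, the binding partner of GluN2 tails, was at 55.6, 46.4 and 95.4 FPKM against 38.9, 43.8 and 55.4. In the authors' deposited table its log2 fold change was 0.51 with an FDR of 0.0199, and the log2 ratio of means was 0.15 without L803mts replicate 3 (limma with all libraries, adjusted p = 0.757). Shank3, which encodes a scaffold below PSD-95, was read from a short locus (chromosome 15, 89378772 to 89379311). It was at 15.5, 13.3 and 37.5 FPKM against 7.22, 11.7 and 17.9. The authors' deposited table gave it a log2 fold change of 0.85 with an FDR of 0.0119, and the log2 ratio of means was 0.23 without the same library. The members with the highest control level over the 3 tables, Nefl, a neurofilament gene, and Homer1, which encodes a link to metabotropic receptors, were at 163 ± 4.91 and 105 ± 4.72 FPKM in the controls of the ketamine table. With ketamine they were at 162 ± 15.5 and 108 ± 13.4.

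Among 23 measured signalling genes, Camk2d fell in libraries labelled siGSK3b and Ptpn5 rose with L803mts in the deposited test. Camk2d, which encodes the delta isoform of the calcium/calmodulin kinase II, was at 21.4, 15.4 and 15.0 FPKM against 29.4, 24.4 and 23.7, without overlap. In the authors' deposited table its log2 fold change was −0.58 with an FDR of 0.0224 (limma, adjusted p = 0.754). With any 1 library left out, its log2 ratio of means was between −0.76 and −0.48. Ptpn5 encodes STEP, a phosphatase that promotes removal of GluN2B from the surface. It was at 57.9, 30.2 and 63.9 FPKM with L803mts and 29.9, 35.0 and 28.0 in control, with an FDR of 0.0359 in the authors' deposited table (limma, adjusted p = 0.757). L803mts replicate 2 was within the control range. The log2 ratio of means of Ptpn5 was between 0.51 and 0.98 with any 1 library left out. The summed level of 8 measured striatal neuron markers was 158, 79.3 and 88.1 FPKM with L803mts against 70.7, 61.4 and 64.0 in control. These sums did not overlap, unlike Ptpn5. Averaged as log2(FPKM + 1), the same markers overlapped, at 3.99, 3.13 and 2.93 against 3.06, 2.72 and 2.65. Their part in the Ptpn5 difference was not tested. Calm2, a calmodulin gene with a high control level, was at 6576 ± 634 FPKM in control and 7322 ± 726 with ketamine. Its level depends on the table. The same controls were at 1663 ± 77.9 over nearly the same limits in the L803mts table, and at 3193 ± 181 in the siGSK3b table.

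Genes of co-agonist and glutamate supply had no call in any table, among 16, 17 and 16 measured. Slc1a2 and Glul, the astrocytic glutamate transporter and glutamine synthetase genes, had the highest control levels over the 3 tables. Slc1a2 was at 572 ± 23.5 FPKM in control and 597 ± 52.2 with ketamine, and Glul at 417 ± 23.9 and 386 ± 2.89. In the siGSK3b table the row named Slc1a2 was a locus of chromosome 2, 102498390 to 102499193, at 7.45 ± 5.35 in control.

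A pair of serine-handling genes, Srr and Slc1a4, was picked because of its values, which were lower with treatment. Slc7a10, of the same list and also picked for its values, was higher in libraries labelled siGSK3b. It was at 23.7, 24.8 and 16.8 FPKM against 15.5, 12.6 and 10.5, without overlap (limma, adjusted p = 0.735). In the other tables its groups overlapped. Srr encodes serine racemase, which makes the co-agonist D-serine. It was at 24.7, 21.4 and 26.3 FPKM in libraries labelled siGSK3b against 27.6, 27.1 and 26.7. In the L803mts table it was at 49.7, 54.8 and 54.5 against 60.6, 55.1 and 59.8, and in the ketamine table at 44.4, 44.3 and 47.5 against 51.6, 48.1 and 50.1. Each treated library was below each control of its table, but the 3 tables share those controls. The differences of −0.16, −0.14 and −0.13 did not pass (limma, adjusted p = 0.916, 0.758 and 0.850).

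Slc1a4, which encodes the neutral amino acid transporter ASCT1, was measured over 1 short locus in all tables (chromosome 11, 20232429 to 20232755). After ketamine its level was 8.72, 6.37 and 5.35 FPKM, against 12.3, 14.9 and 18.6 in control, a difference of −1.06 with an interval from −1.53 to −0.59 (limma, adjusted p = 0.488), and the authors' deposited table gave an FDR of 0.0914. In the libraries labelled siGSK3b it was at 6.92, 10.4 and 5.60 against 12.3, 15.0 and 18.5 (limma, adjusted p = 0.735). With L803mts it was at 10.3, 9.13 and 16.2 against 12.4, 15.2 and 18.9, with overlap. Neither test called it in any table.

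The 11 measured genes of AMPA, kainate and delta receptors, relatives of the subunit genes, had no call in any table. Grin3b, also on that list, was not analysed here. Their median differences were 0.03, −0.01 and −0.03 in the siGSK3b, L803mts and ketamine tables, where those of the subunit genes were 0.04, 0.14 and −0.15. Gria2 and Gria1, AMPA receptor genes, had the highest control levels. In the ketamine table Gria2 was at 519 ± 22.2 FPKM in control and 524 ± 51.1 with ketamine, and Gria1 at 256 ± 35.6 and 226 ± 39.2.

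**Figure D5:**
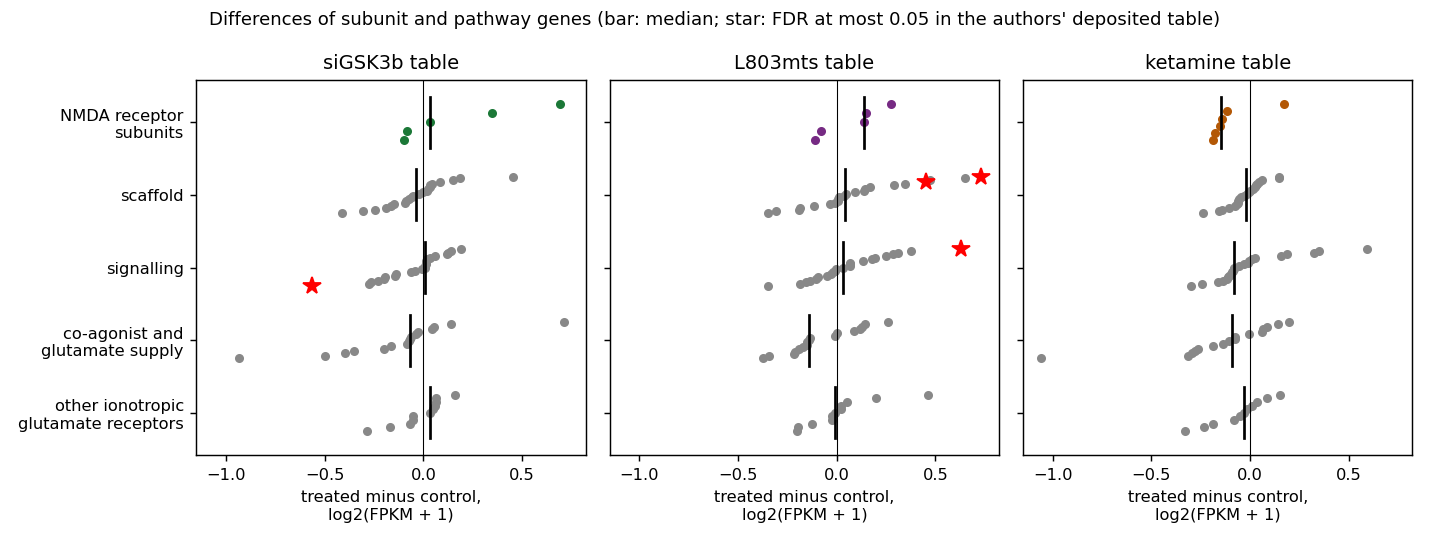
Difference between treated and control libraries on the log2(FPKM + 1) scale for each measured subunit gene and for the genes of the 4 lists, 1 panel per table. Black bars are medians and red stars the genes that the authors' test called (Camk2d in the siGSK3b table; Dlg4, Shank3 and Ptpn5 in the L803mts table).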

How the data were processed

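Poly(A)-selected directional libraries were made per the labels' protocols. TopHat2 2.0.9, Cufflinks and Cuffdiff were used per the submitters' processing notes, which list the builds GRCh37 and NCBIM37 without roles. Chromosome 7 coordinates reach 152125614, beyond the last GRCm38 gene end (145324086), so coordinates are given as NCBIM37. The deposited tables hold FPKM per library and group, log2 fold changes, and p-values with FDR, per the file headers and Cuffdiff's format. The authors' group values were not used, because they differed by over 1% from the library means at 9.28% to 10.2% of loci.

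Limma 3.58.1 (R 4.3.3, intensity trend) modelled log2(FPKM + 1) in each table (6 libraries), over loci with a deposited p below 1, with Benjamini-Hochberg adjustment over all of them. A fold on this scale understates changes of low loci. The fit was tested on simulated data. Tables were normalised separately, so tests stay within a table. Single-read steps were sought at 260 to 314 low loci per table, and 0 to 4 gave whole-number ratios (tolerance 0.05), so depth was not recovered. The members and lists were chosen with earlier results of these data known. Named genes are the 6 members, list genes called by either test (at most 4 per list and table), the 2 highest of each list and the 3 genes most like each member. Others are marked, and 1 gene and 1 sequence are not reported here. Leaving out libraries for Dlg4, Shank3, Ptpn5 and Camk2d was chosen after seeing the data. Alternatives covered the pseudocount, filters, centring, trend, replicate block, locus choice and each library left out.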

Additional observations from a re-analysis of the deposited data

How the results depend on the processing

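No subunit gene was called under any alternative run. Of 210 recomputed differences, 198 kept their sign and side of the threshold, 12 changed sign, and the lowest adjusted p was 0.229. Sign changes came from leaving out 1 library, apart from the shorter Grin2a row of the siGSK3b table (−0.39). The leave-one-out ranges that crossed 0 were −0.22 to 0.050 (Grin1) and −0.065 to 0.11 (Grin3a) in the siGSK3b table. In the L803mts table they were −0.048 to 0.27 (Grin1), −0.19 to 0.77 (Grin2a), −0.10 to 0.27 (Grin2c) and −0.22 to 0.039 (Grin3a), and in the ketamine table −0.0083 to 0.36 (Grin2c) and −0.37 to 0.041 (Grin2d). Ranges that kept their sign also moved by over 1.5 times. In the ketamine table they were −0.31 to −0.023 (Grin1) and −0.27 to −0.076 (Grin2b), both smallest without control replicate 3, −0.25 to −0.016 (Grin2a, smallest without ketamine replicate 1) and −0.31 to −0.094 (Grin3a, smallest without control replicate 1). Grin2b ranged from −0.19 to −0.028 in the siGSK3b table and from −0.22 to −0.0080 in the L803mts table. The Grin2a to Grin2b ratio differed by −0.29 and −0.10 with the other Grin2a row in the siGSK3b and ketamine tables, and leaving out a ketamine-table library gave −0.046 to 0.14. The authors' deposited test called 83, 111 and 77 of all loci where limma called 1, 0 and 2 (siGSK3b, L803mts, ketamine), and 1 and 3 pathway genes in the first 2 tables where limma called 0. Leaving out a library gave 0 to 36, 0 to 36 and 1 to 13 called loci, with 36 without control replicate 1 in the first 2 tables and 13 without control replicate 2 in the ketamine table. The siGSK3b count was 2 after centring, and the ketamine count 1 without the trend. With the replicate number as a block it was 2 in the siGSK3b table and 1 in the ketamine table, and no subunit or pathway gene was called. Same-numbered control and treated libraries had correlations of −0.16 to 0.19 across loci, and differently numbered ones of −0.26 to 0.19. In the L803mts and ketamine tables every same-numbered correlation was positive. With 3 libraries a group these values do not settle whether the numbers pair the samples. The cause of these moves was not tested. With 3 libraries a group precision is limited: the median 95% interval over all loci was ±0.36, ±0.40 and ±0.37.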
